A study of Mus musculus with 27 samples.

Results

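Lysosomal enzymes, membrane proteins and the proton pump of the lysosome were followed in CD11b+ cells of mice, sorted from hippocampus (HC) or prefrontal cortex (PFC). The set was a list of 37 genes fixed by name, with the cathepsins left out. All 37 were found among the 53412 gene identifiers of the minocycline table and among the 55421 of the enrichment table. All 37 also reached 10 counts in at least 2 libraries of each table and passed the count filter used for testing. By role the list held 8 membrane proteins, 11 enzymes of sugar-chain breakdown, 5 genes of lipid handling, 2 proteases, 2 cofactors, the regulator Tfeb and 8 genes of the proton pump.

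The lysosome is the acidic compartment in which cells break down material they have taken up and worn-out parts of their own. The vacuolar proton pump acidifies it with ATP, membrane proteins such as LAMP1 line and protect it, and soluble hydrolases cut proteins, glycans and lipids. TFEB is a transcription factor that binds a short DNA element, the CLEAR element, near the start of many lysosomal genes. Microglia, the resident phagocytes of the brain, are rich in lysosomes, and the lysosomal glycoprotein CD68 is widely used as a marker of phagocytic microglia.

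All libraries came from mice labelled as strain C57BJ6 and were made from polyA RNA of CD11b+ cells. CD11b is an integrin on the surface of microglia, monocytes, macrophages and neutrophils. CUMS stands for chronic unpredictable mild stress, in which mice meet varying mild stressors as a model of depression. In the minocycline experiment the groups were stressed mice given the antibiotic minocycline (CUMS_M, 3 libraries in HC and 3 in PFC), stressed mice (CUMS, 3 in HC and 2 in PFC) and unstressed mice (NAIVE, 2 in HC and 2 in PFC). In the enrichment experiment all mice were stressed, and the groups were stress with environmental enrichment (EE, 3 libraries in each region) and stress with vehicle (VEH, 3 in each region). Enrichment means housing with more stimulation. The labels give no sex, age, dose or duration and do not say whether libraries of a group came from separate animals. The p-values therefore rest on the spread between libraries only, which may be technical. The EE and VEH groups differ by the vehicle as well as by the housing as far as the labels tell.

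In the minocycline table the total per library was between 7.87 M and 15.3 M counts, and in the enrichment table between 19.5 M and 23.9 M. The 37 genes together took 2.76 to 3.39% of all counts of a library in the minocycline table and 2.30 to 2.77% in the enrichment table. The lowest count of a member was 16, for Gla, in the minocycline table, and 120, again for Gla, in the enrichment table. The 12 microglial markers were all detected in every group, with a summed level of 37687 to 48652 CPM (counts per 1 M counts of the library, after TMM scaling of library sizes) in the minocycline table and of 32587 to 43784 CPM in the enrichment table. Markers of the choroid plexus, an epithelium outside the CD11b+ gate, set some libraries apart. In the minocycline table their 8 genes summed to 565 to 1940 CPM in HC libraries and to 1.31 to 3.25 CPM in PFC libraries, except for 612 CPM in PFC CUMS_M 3. In the enrichment table they did not follow the region label, with 1994, 513.5 and 1122 CPM in HC EE, 0.613, 1.10 and 213 CPM in HC VEH, 11.9, 1145 and 232 CPM in PFC EE and 0.446, 730.3 and 737 CPM in PFC VEH. No other record of the region was used here, so whether these libraries and PFC CUMS_M 3 carry the right region label was not tested, and every region comparison takes the labels as given. The members called between the regions are therefore also given without PFC CUMS_M 3.

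Since TFEB is in the list, the promoters of the members were searched for its element. RefSeq promoter windows on GRCm38.p6, which run from 250 bases before to 50 bases after a start site, were found for 32 of the 37 members (38 windows). Asah1, Npc1, Atp6v1h, Galns and Atp6v1b2 had none. The E-box CACGTG, a palindrome that reads alike on both strands, occurred in windows of 10 members (31.2%), against 8.09% of the 27025 genes with a window. The members were Lamp1, Mcoln1, Gaa, Gla, Glb1, Sgsh, Naglu, Lgmn, Atp6v0d1 and Atp6v1a. The longer CLEAR core TCACGTGA, which contains the E-box and is also a palindrome, occurred in 4 members (12.5%), against 1.12% of genes. These are matches of letters and not measured binding sites. The stretches of the 4 members with the core are shown first, and those of Lamp1 and Lgmn are added because both differed between the regions below. Capitals mark the E-box or the core, written 5′ to 3′ on the strand of the gene.
Mcoln1 (chr8:3500408-3500519, plus strand): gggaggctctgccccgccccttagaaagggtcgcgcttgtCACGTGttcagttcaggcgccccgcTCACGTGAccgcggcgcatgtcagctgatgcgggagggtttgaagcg
Gla (chrX:134601154-134601255, minus strand): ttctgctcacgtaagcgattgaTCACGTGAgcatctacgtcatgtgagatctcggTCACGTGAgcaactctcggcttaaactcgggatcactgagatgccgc
Atp6v0d1 (chr8:105566022-105566107, minus strand): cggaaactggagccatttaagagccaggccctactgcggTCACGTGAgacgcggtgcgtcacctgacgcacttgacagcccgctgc
Atp6v1a (chr16:44139345-44139430, minus strand): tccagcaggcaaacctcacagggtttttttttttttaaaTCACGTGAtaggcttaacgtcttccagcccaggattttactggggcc
Lamp1 (chr8:13159060-13159191, plus strand): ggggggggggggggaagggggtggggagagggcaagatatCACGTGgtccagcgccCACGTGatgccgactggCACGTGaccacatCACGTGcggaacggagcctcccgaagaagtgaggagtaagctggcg
Lgmn (chr12:102439096-102439181, minus strand): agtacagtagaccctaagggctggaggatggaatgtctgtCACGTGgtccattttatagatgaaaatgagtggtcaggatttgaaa
Gla and Mcoln1 held 2 motifs each, and Lamp1 held 4 E-boxes, which began 61, 45, 28 and 15 bases before its annotated start. The Lgmn stretch and the Atp6v1a stretch lie inside the annotated span of the gene, whereas the other 4 stretches lie at or just before the start of the gene. The windows of Atp6v0c, the member that differed most between the regions, held no CACGTG.

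Several members were among the most abundant transcripts of the cells. Levels between genes are compared per length, as CPM per kilobase of exon (RPKM). The median member had 49.6 RPKM in the minocycline table and 45.9 RPKM in the enrichment table, against medians of 3.83 and 3.54 RPKM over all tested genes. Of the 37 members, 27 in the minocycline table and 25 in the enrichment table lay in the top 10% of tested genes. The order of the members was nearly the same in both tables (Spearman rho = 0.995 across the 37 genes, which are not independent replicates and share their lengths).

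The highest level per length belonged to Lgmn, an asparaginyl endopeptidase, with a mean of 2582 RPKM in the minocycline table and 2205 RPKM in the enrichment table (rank 11 and rank 10 of all tested genes). Psap, the precursor of the saposins that help degrade sphingolipids, followed with 1947 and 1637 RPKM. Laptm5, a lysosomal membrane protein of hematopoietic cells, had 1427 and 967 RPKM. Grn, which encodes progranulin, and Cd68 came next and were close to each other. Grn averaged 806 and 599.6 RPKM, and Cd68 averaged 788 and 598 RPKM, so their ranges overlapped in both tables. Among enzymes that cut sugar chains, Hexa, the alpha subunit of beta-hexosaminidase, had 487 and 417 RPKM and Man2b1, an alpha-mannosidase, 225 and 190.4 RPKM.

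Pump genes lay lower than these. The accessory subunit Atp6ap1 had 124 and 102 RPKM. In the membrane sector V0, Atp6v0d1 had 70.9 and 61.2 RPKM, Atp6v0c, the proteolipid of the proton-carrying ring, 48.3 and 55.3 RPKM, and Atp6v0a1 42.4 and 40.8 RPKM. In the ATP-cutting sector V1, Atp6v1b2 had 30.3 and 26.6 RPKM, Atp6v1a 14.2 and 13.5 RPKM and the regulatory subunit Atp6v1h 4.11 and 4.14 RPKM. Tfeb had 15.8 and 14.7 RPKM. The lowest 3 members were Mcoln1, a calcium channel of the lysosomal membrane, with 7.39 and 10.3 RPKM, Atp6v1h, and Gla, alpha-galactosidase A, with 2.09 and 2.32 RPKM.

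**Figure D1:**
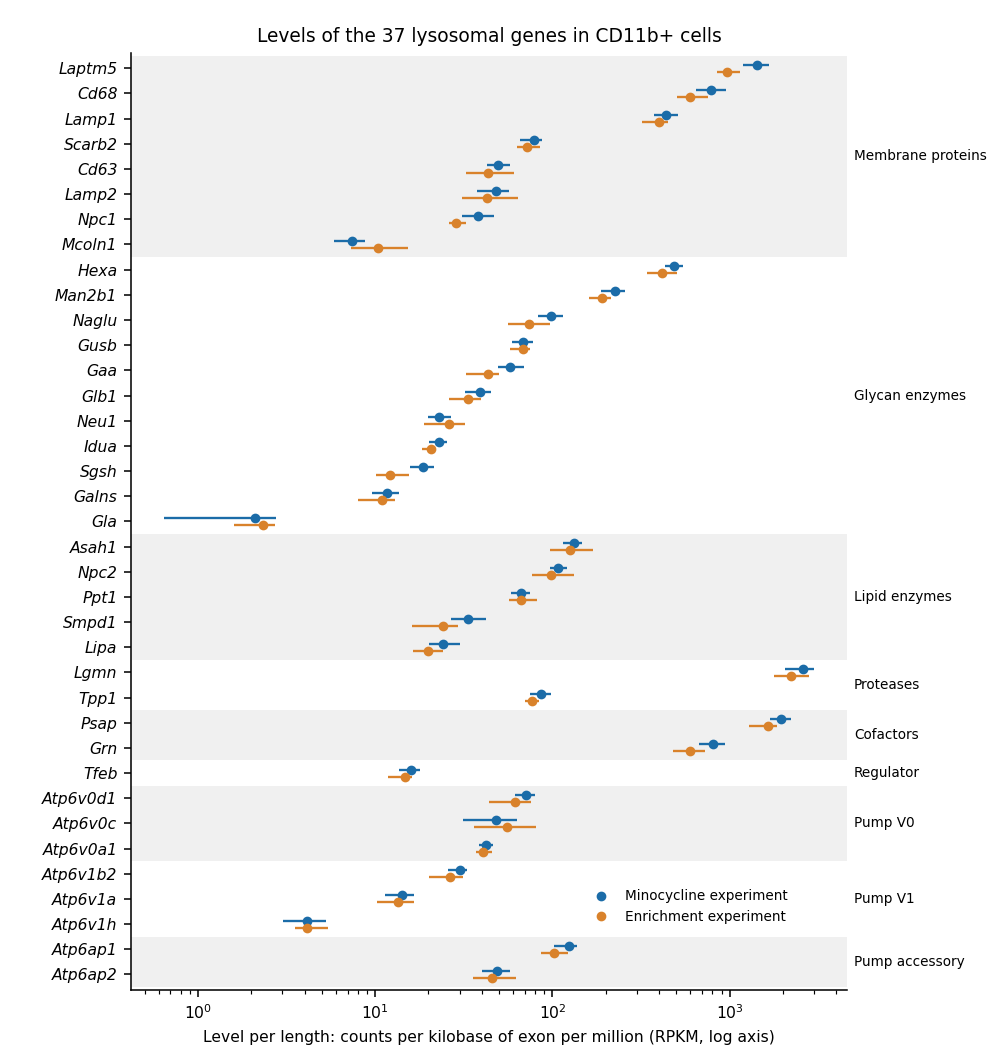
Level per length of each of the 37 genes in RPKM on a log axis, by role, with the mean (point) and the lowest and highest library (line) of the 15 libraries of the minocycline experiment and the 12 of the enrichment experiment. Lgmn, Psap and Laptm5 stand highest and Gla lowest in both experiments, and the lines of most genes are short beside the distances between genes.

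The members varied little between libraries. In the minocycline table the SD of log2 CPM within a group had a median of 0.130 over members, against 0.248 over all tested genes. In the enrichment table it was 0.186, against 0.270. The members stood far higher in level than the median tested gene and were not compared with genes of like level. A smaller spread particular to them is therefore not shown. Over all libraries of a table, the highest CPM of a member was less than 2 times its lowest for 36 members in the minocycline table and for 34 in the enrichment table. The exception in the first was Gla (4.30 times), whose lowest value, 2.09 CPM, was in PFC NAIVE 1. The exceptions in the second were Atp6v0c (2.23 times), Mcoln1 (55.4 to 116 CPM) and Lamp2 (2.05 times).

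The difference between the brain regions was the only comparison in which members passed the test with edgeR. The HC libraries were set against the PFC libraries with equal weight for each treatment. In the minocycline experiment, 3 of the 37 members were called at an adjusted p under 0.05, all higher in HC, beside 5.1% of all tested genes (744 genes, 500 of them higher in HC). At an unadjusted p under 0.05 there were 7 of 37, all higher in HC, beside 19% of tested genes. The 3 called were Atp6v0c of the proton pump, Lamp1 of the membrane and the protease Lgmn. The median log2 fold change of the 37 was 0.09, with 30 above 0, against 0.02 and 53.9% of all tested genes. These are bulk values, in which fewer cells of a type and less RNA per cell cannot be told apart.

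Atp6v0c (ENSMUSG00000024121, chr17:24163866-24169702, minus strand, GRCm38) had 186, 186 and 168 CPM in HC CUMS_M, against 122, 168 and 107 CPM in PFC CUMS_M. It had 191, 184 and 198 CPM in HC CUMS, against 117 and 119 CPM in PFC CUMS. It had 206 and 213 CPM in HC NAIVE, against 144 and 146 CPM in PFC NAIVE. The HC libraries stood above the PFC libraries in the CUMS and NAIVE groups, and in CUMS_M HC CUMS_M 3 and PFC CUMS_M 2 lay at nearly the same level. The difference was larger than the spread between libraries (log2 fold change 0.56 ± 0.08 (SE), adjusted p = 0.000145, edgeR with Benjamini-Hochberg adjustment). Without PFC CUMS_M 3, the PFC library with choroid plexus markers and the lowest Atp6v0c level of all, the estimate was 0.51 (adjusted p = 8.71e-05). Leaving out each library in turn kept it between 0.51 and 0.63. Atp6v0c has the processed copies Atp6v0c-ps1 and Atp6v0c-ps2, which held 1 and 188 counts over all libraries of the table. How reads that match near-identical copies were split was not tested.

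In the enrichment table no such difference was detected for Atp6v0c. It had 146, 173 and 159 CPM in HC EE, against 274, 162 and 215 CPM in PFC EE. It had 230.0, 218 and 136 CPM in HC VEH, against 225, 189 and 123 CPM in PFC VEH. The libraries of the regions overlapped in both groups, and the log2 fold change of HC minus PFC was -0.16 ± 0.17 (95% interval -0.54 to 0.21). The 2 HC VEH libraries near 0 in choroid plexus markers, numbers 1 and 2, had the highest Atp6v0c levels among HC libraries. The PFC libraries lowest in these markers, PFC EE 1 and PFC VEH 1, had the highest levels among PFC libraries (274 and 225 CPM). In the minocycline table the libraries near 0 in these markers were PFC libraries, where Atp6v0c was lower than in HC. A relation between these markers and Atp6v0c was not tested. Whether the tables differ in this effect was not tested, since they were fitted apart.

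Lamp1 (ENSMUSG00000031447, chr8:13159161-13175338, plus strand) encodes a major glycoprotein of the lysosomal membrane. It had 1315, 1286 and 1181 CPM in HC CUMS_M, against 1056, 1012 and 997 CPM in PFC CUMS_M. The HC CUMS libraries had 1193, 1151 and 1359.5 CPM, against 1015 and 1087 CPM in PFC CUMS, and the HC NAIVE libraries had 1241 and 1285 CPM, against 1196 and 1110.0 CPM in PFC NAIVE. Within each treatment every HC library was above every PFC library (log2 fold change 0.22 ± 0.05 (SE), adjusted p = 0.0171, edgeR). Without PFC CUMS_M 3 the estimate was 0.22 (adjusted p = 0.0293). The call was lost without PFC CUMS 1 (adjusted p = 0.0806), PFC NAIVE 2 (0.0536) or HC NAIVE 2 (0.0699), while the log2 fold change stayed between 0.20 and 0.24. Exons of a gene on the opposite strand cover 9.31% of the Lamp1 exon bases, and the strand setting of the counting is not given in the sources used here.

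Lgmn (ENSMUSG00000021190, chr12:102394084-102439813, minus strand) had 6965, 6854 and 6142 CPM in HC CUMS_M, against 5783, 5714 and 5349 CPM in PFC CUMS_M. It had 5643, 5809.7 and 6322 CPM in HC CUMS, against 4796 and 5453 CPM in PFC CUMS, and 6385 and 6735 CPM in HC NAIVE, against 6359 and 5652 CPM in PFC NAIVE. The HC libraries again lay above the PFC libraries within each treatment (log2 fold change 0.19 ± 0.05 (SE), adjusted p = 0.0336, edgeR). This was the weakest of the 3 calls. Leaving out single libraries moved its adjusted p between 0.0322 and 0.149 and the log2 fold change between 0.17 and 0.23, and Lgmn was called in 5 of these 15 fits. Without PFC CUMS_M 3 the estimate was 0.18 and the adjusted p 0.0648.

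The next members by p were Glb1, beta-galactosidase (log2 fold change 0.22 ± 0.06 (SE), adjusted p = 0.0501, edgeR), and Gusb, beta-glucuronidase (log2 fold change 0.17 ± 0.05 (SE), adjusted p = 0.0782, edgeR), which did not pass. The other members had log2 fold changes between -0.14 (Lamp2) and 0.19 (Smpd1, acid sphingomyelinase). Markers of other cells differed between the regions as well. Of 12 endothelial and mural markers 8 were called higher in HC (summed level 226 to 440.0 CPM in HC, against 154 to 331 CPM in PFC), of 12 astrocyte markers 4 higher (319 to 633 CPM in HC, against 240.3 to 860.0 CPM in PFC) and of 8 choroid plexus markers 6 higher. Of 10 neuronal markers 3 were called lower in HC (11.6 to 20.3 CPM in HC, against 12.4 to 87.4 CPM in PFC) and of 10 neutrophil markers 1 lower (137 to 2051 CPM in HC, against 479 to 4081 CPM in PFC), while of 12 microglial markers 0 were called. Of 10 border macrophage markers 10 were above 0 (2141 to 2920 CPM in HC, against 1638 to 2609 CPM in PFC). Of 8 monocyte markers 0 were above 0 (128 to 274 CPM in HC, against 229 to 453 CPM in PFC). In both of these lists 0 were called. The part of all these cells in the 3 member calls was not tested. The PFC libraries of this table were also shallower, and after thinning all libraries to equal depth, an alternative chosen after seeing the data, the same 3 members were called.

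In the enrichment table none of the 37 members (0) differed between HC and PFC by edgeR, beside 0% of tested genes, and 0 had an unadjusted p under 0.05 (2.08% of tested genes had) or passed DESeq2. Since the choroid plexus markers did not follow the region label here, the absence of calls does not show that the regions were alike. The median log2 fold change was -0.01, with 17 members above 0, and leaving out single libraries moved it between -0.06 and 0.06. For Lamp1 it was 0.09 ± 0.09 (95% interval -0.11 to 0.29) and for Lgmn 0.01 ± 0.11 (95% interval -0.23 to 0.24). The interval lay within a 1.5-fold change in either direction for all 37 members.

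**Figure D2:**
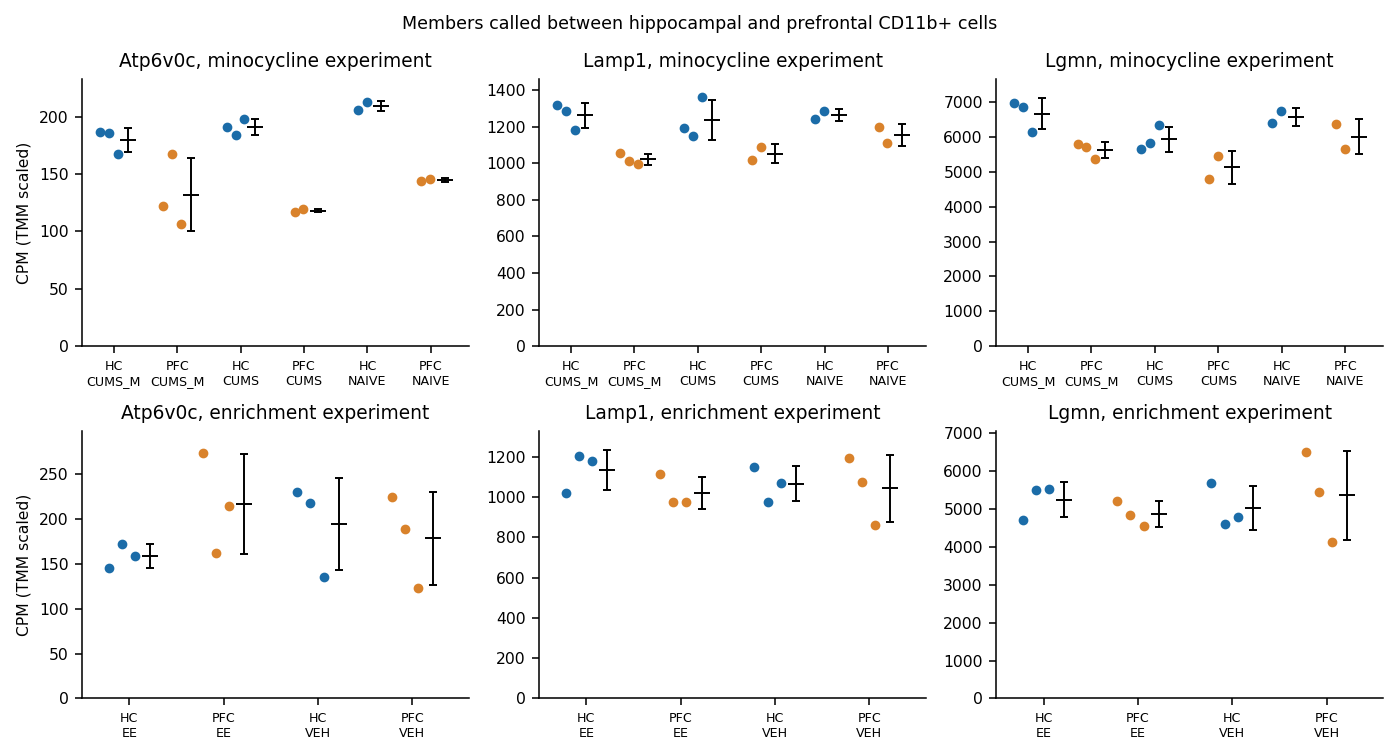
CPM of Atp6v0c, Lamp1 and Lgmn in each library (points; blue HC, orange PFC) with the mean and SD of the group (bar), in the minocycline experiment (upper row) and the enrichment experiment (lower row). In the upper row HC points lie above PFC points of the same treatment, apart from Atp6v0c in CUMS_M, and in the lower row the regions overlap.

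The question of the stress comparison was whether CUMS changed the transcripts of microglia. No lysosomal member passed the test in either region, and the estimates leaned to lower levels after stress in both. The shares of tested genes given beside members called are those of edgeR, here and below. DESeq2 called more genes in some comparisons, and its counts for some of them are given at the end. In PFC, 0 of 37 members were called in CUMS against NAIVE by edgeR and by DESeq2, beside 0.816% of tested genes by edgeR (119 genes). An unadjusted p under 0.05 was found for 7 of 37 (6 lower, and Mcoln1 higher), beside 13.7% of tested genes. The median log2 fold change was -0.17, with 6 members above 0, against 0.02 and 52.4% of all tested genes. In HC, 0 of 37 were called by either tool, beside 0% of tested genes, and 5 of 37 had an unadjusted p under 0.05, beside 2.87% of tested genes, all lower. The median was -0.13, with 1 member above 0, against -0.01 and 48.5% of all genes.

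Npc1, the membrane transporter that exports cholesterol from the lysosome, had the smallest p of the members in both regions. It had 385 and 380.1 CPM in PFC CUMS, against 504 and 506 CPM in PFC NAIVE (log2 fold change -0.40 ± 0.11 (SE), adjusted p = 0.114, edgeR). It had 348, 364 and 436 CPM in HC CUMS, against 434 and 493 CPM in HC NAIVE (log2 fold change -0.28 ± 0.10 (SE), adjusted p = 1, edgeR). The PFC groups did not overlap, while in HC the library HC CUMS 3 reached the range of HC NAIVE, and neither difference passed the test.

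Laptm5 had 4480.1 and 4834 CPM in PFC CUMS, against 6152 and 5723 CPM in PFC NAIVE (log2 fold change -0.35 ± 0.12 (SE), adjusted p = 0.198, edgeR). Lipa, the acid lipase, had 142 and 138 CPM in PFC CUMS, against 181 and 179 CPM in PFC NAIVE (log2 fold change -0.37 ± 0.14 (SE), adjusted p = 0.238, edgeR). Both had every CUMS library below every NAIVE library, as 22 of the 37 members had in PFC, beside 19.4% of all tested genes, and neither passed the test. The Mcoln1 estimate had the other sign, with 62.2 and 60.3 CPM in PFC CUMS and 48.6 and 46.7 CPM in PFC NAIVE (log2 fold change 0.36 ± 0.16 (SE), adjusted p = 0.333, edgeR).

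In HC the members after Npc1 were Cd68 and Galns. Cd68 had 851, 814 and 1063 CPM in HC CUMS, against 1021 and 1193 CPM in HC NAIVE (log2 fold change -0.28 ± 0.12 (SE), adjusted p = 1, edgeR), and 847 and 919.7 CPM in PFC CUMS, against 1093 and 1029.8 CPM in PFC NAIVE (-0.26 ± 0.13). Galns, a sulfatase of keratan sulfate breakdown, had 25.7, 31.3 and 29.3 CPM in HC CUMS, against 35.8 and 36.3 CPM in HC NAIVE (log2 fold change -0.32 ± 0.14 (SE), adjusted p = 1, edgeR). The CUMS and NAIVE libraries of Galns did not overlap in HC, while those of Cd68 did through HC CUMS 3.

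Within HC CUMS, libraries 1 and 2 were low and library 3 high for most members, and the microglial markers moved with them. The members took 2.84, 2.89 and 3.39% of counts in HC CUMS 1, 2 and 3, against 3.17 and 3.35% in HC NAIVE. The summed level of the microglial markers was 37687, 39815 and 44259 CPM in HC CUMS, against 43271 and 45357 CPM in HC NAIVE. The median deviation of the members from their mean over all libraries of the table was -0.15, -0.14 and 0.10 (log2) in HC CUMS, against 0.04 and 0.15 in HC NAIVE. Leaving out HC CUMS 3 took the median log2 fold change of CUMS minus NAIVE in HC to -0.21, and over all single libraries left out it ran from -0.21 to -0.07. All 12 astrocyte markers had estimates above 0 in HC (summed level 520.1 to 590.2 CPM in HC CUMS, against 319 to 390.5 CPM in HC NAIVE), and all 10 neutrophil markers had estimates below 0 (137 to 386 CPM in HC CUMS, against 622 to 1351 CPM in HC NAIVE), with 0 called in either list. The 10 oligodendrocyte markers were all above 0 as well (659.7 to 819.7 CPM in HC CUMS, against 482.4 and 482.6 CPM in HC NAIVE), with 0 called. In PFC, 6 of 12 astrocyte markers were called higher in CUMS (782 and 860.0 CPM in PFC CUMS, against 240.3 and 276 CPM in PFC NAIVE), as were 3 of 12 endothelial and mural markers (265 and 331 CPM in PFC CUMS, against 154 and 201 CPM in PFC NAIVE). The microglial markers in PFC stood at 38440 and 40573 CPM in CUMS, against 47426 and 44518 CPM in NAIVE. Of 10 neuronal markers 5 were above 0 in PFC, and Stmn2, without counts in PFC NAIVE, was called higher (7.47 ± 1.73 (SE), adjusted p = 0.0486, edgeR). Above 0 were also 1 of 10 neutrophil and 9 of 10 border macrophage markers in PFC, with 0 called. The part of these markers in the lower estimates was not tested.

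**Figure D3:**
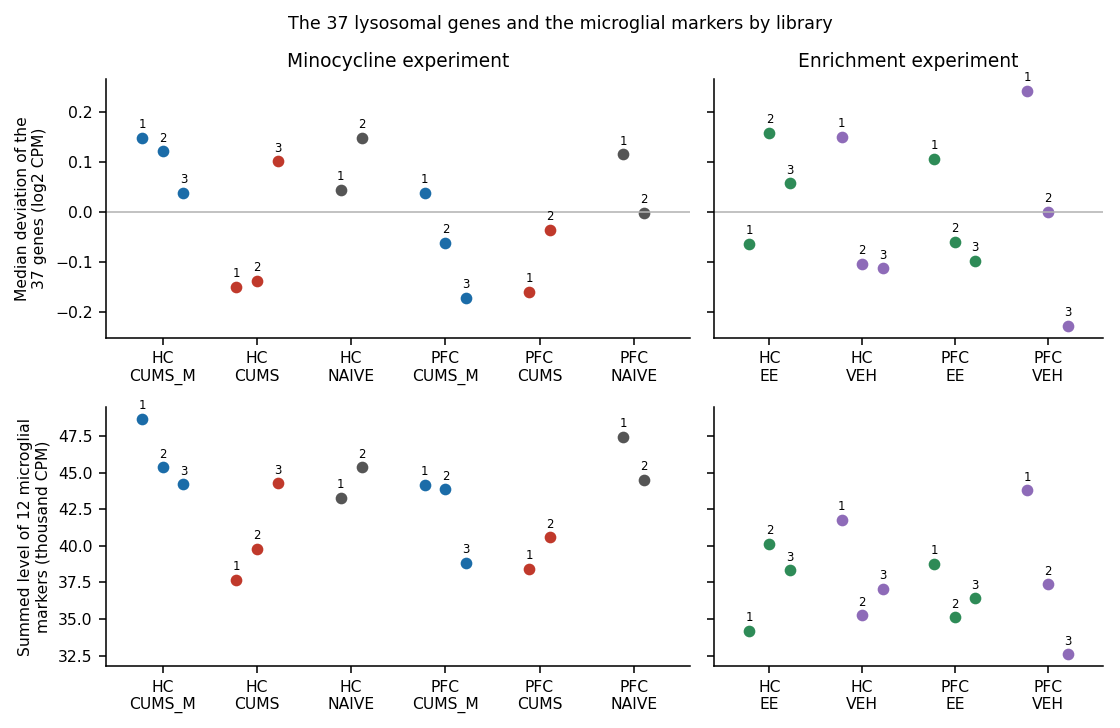
Upper row, the median over the 37 genes of the deviation of log2 CPM from each gene's mean over the libraries of the table. Lower row, the summed CPM of the 12 microglial markers, with replicate numbers beside the points. In HC CUMS, libraries 1 and 2 lie below library 3 in both rows, and in the enrichment experiment PFC VEH 1 is the highest and PFC VEH 3 the lowest library in both rows.

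Grn and Tfeb were followed in every group. Grn had 2371 and 2621 CPM in PFC CUMS, against 3045 and 2837 CPM in PFC NAIVE, and 2400.0, 2422 and 3289 CPM in HC CUMS, against 2868 and 3207 CPM in HC NAIVE. Its log2 fold changes were -0.24 ± 0.13 and -0.17 ± 0.11, which did not pass. Tfeb had 90.0 and 88.3 CPM in PFC CUMS, against 102 and 89.2 CPM in PFC NAIVE, and 101, 83.1 and 84.3 CPM in HC CUMS, against 96.1 and 83.4 CPM in HC NAIVE. Its estimates were -0.10 ± 0.13 in PFC and 0.00 ± 0.12 in HC.

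The minocycline comparison asked what the drug did to stressed mice, with CUMS_M set against CUMS. No member passed the test. In HC, 0 of 37 members were called by edgeR, beside 0.00686% of tested genes (1 gene), and 7 of 37 had an unadjusted p under 0.05, beside 4.01% of tested genes, all higher in CUMS_M. DESeq2 called 1 member, Npc1, and the share of all genes that it called in this comparison is not given here. The median log2 fold change was 0.15, with 31 members above 0, against 0.01 and 51.5% of all genes. Leaving out single libraries moved the median between 0.09, without HC CUMS 1, and 0.24, without HC CUMS 3. Of 12 microglial markers 11 were above 0 (44192 to 48652 CPM in HC CUMS_M, against 37687 to 44259 CPM in HC CUMS), of 10 neutrophil markers 10 (275 to 2051 CPM in HC CUMS_M, against 137 to 386 CPM in HC CUMS) and of 12 endothelial and mural markers 1 (226 to 340.3 CPM in HC CUMS_M, against 315 to 440.0 CPM in HC CUMS). None of these markers was called (0), and their part in the member estimates was not tested. This comparison uses the same CUMS libraries as CUMS minus NAIVE, so its sign is tied to that of the stress comparison and is no separate support for it.

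Npc1 in HC had 531, 442 and 499 CPM in CUMS_M, against 348, 364 and 436 CPM in CUMS. All 3 CUMS_M libraries lay above all 3 CUMS libraries (log2 fold change 0.36 ± 0.09 (SE), adjusted p = 0.582, edgeR; adjusted p = 0.0494 by DESeq2). Gusb had 355, 344 and 351 CPM in CUMS_M, against 280.0, 279 and 329.8 CPM in CUMS (log2 fold change 0.24 ± 0.08 (SE), adjusted p = 0.944, edgeR). Man2b1 had 2069, 1889 and 2032 CPM in CUMS_M, against 1509, 1604 and 1938 CPM in CUMS (log2 fold change 0.25 ± 0.09 (SE), adjusted p = 0.963, edgeR), with overlap through HC CUMS 3. By role the median was 0.21 for the sugar-chain enzymes, of which 10 of 11 were above 0, 0.17 for the membrane proteins, of which 7 of 8 were above 0, and 0.02 for sector V0 of the pump. Tfeb was at -0.06 ± 0.11, with 88.7, 77.2 and 90.8 CPM in HC CUMS_M, against 101, 83.1 and 84.3 CPM in HC CUMS. Lamp1 was at 0.03 ± 0.08, Cd68 at 0.21 ± 0.11 and Grn at 0.18 ± 0.10.

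In PFC the estimates lay closer to 0. In CUMS_M against CUMS, 0 of 37 members were called by edgeR and by DESeq2, beside 0.0206% of tested genes (3 genes), and 0 had an unadjusted p under 0.05, beside 5.54% of tested genes. The median log2 fold change was 0.04, with 23 members above 0, and it ran from -0.02 to 0.07 with single libraries left out. Astrocyte markers stood at 314 to 518 CPM in PFC CUMS_M, against 782 to 860.0 CPM in PFC CUMS, with all 12 below 0 and 0 called. Of 12 endothelial and mural markers 0 were above 0. Among them Cldn5 was called lower (-2.25 ± 0.36 (SE), adjusted p = 0.0410, edgeR). Of 10 oligodendrocyte and of 10 neuronal markers 0 were above 0. Above 0 were 9 of 12 microglial, 7 of 10 neutrophil and 8 of 8 choroid plexus markers. The part of all these markers in the member estimates was not tested. The 3 members of smallest p were Atp6v1h (log2 fold change -0.31 ± 0.18 (SE), adjusted p = 1, edgeR), Lgmn (log2 fold change 0.13 ± 0.09 (SE), adjusted p = 1, edgeR) and Sgsh, a sulfatase of heparan sulfate (log2 fold change 0.18 ± 0.13 (SE), adjusted p = 1, edgeR). Npc1 had 378, 389 and 362 CPM in PFC CUMS_M, against 385 and 380.1 CPM in PFC CUMS, a log2 fold change of -0.03 ± 0.10. For 35 of 37 members the 95% interval lay within 1.5-fold in either direction. Cd68 had 1074, 925 and 865 CPM in PFC CUMS_M and 1105, 1083 and 968 CPM in HC CUMS_M.

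Minocycline-treated mice were also set against NAIVE mice, with the NAIVE libraries shared with the stress comparison. In PFC, 0 of 37 members were called by edgeR, beside 0.0892% of tested genes (13 genes), and 5 of 37 had an unadjusted p under 0.05, beside 14% of tested genes, all lower. The median was -0.14, with 5 members above 0. Npc1 was lower in all 3 CUMS_M libraries than in both NAIVE libraries (log2 fold change -0.43 ± 0.10 (SE), adjusted p = 0.123, edgeR). This gene was called by DESeq2 (adjusted p = 0.0270) and by edgeR without a filter on low counts (0.0177). The shares of all genes called in those fits are not given here. Atp6v1h had 42.7, 33.1 and 29.6 CPM in PFC CUMS_M, against 47.4 and 51.2 CPM in PFC NAIVE (log2 fold change -0.49 ± 0.18 (SE), adjusted p = 0.254, edgeR). Man2b1 had 1670.3, 1713 and 1596 CPM in PFC CUMS_M, against 2019.8 and 1871 CPM in PFC NAIVE (log2 fold change -0.23 ± 0.10 (SE), adjusted p = 0.310, edgeR). Of 12 astrocyte markers 12 were above 0 in this comparison, and Aldh1l1 was called higher (2.48 ± 0.39 (SE), adjusted p = 0.0170, edgeR). Above 0 were also 0 of 10 oligodendrocyte, 8 of 8 choroid plexus and 4 of 12 microglial markers, with 0 called. The part of these markers in the member estimates was not tested.

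In HC, 0 of 37 were called in CUMS_M against NAIVE by either tool, beside 0% of tested genes, 1 had an unadjusted p under 0.05, beside 2.33% of tested genes, and the median was 0.01 with 21 members above 0 (-0.04 to 0.07 with single libraries left out). The smallest p belonged to Mcoln1, with 46.3, 53.8 and 55.0 CPM in HC CUMS_M, against 66.5 and 62.3 CPM in HC NAIVE (log2 fold change -0.32 ± 0.14 (SE), adjusted p = 1, edgeR). Atp6v0c followed at -0.22 ± 0.13 and Smpd1 at 0.13 ± 0.14. Above 0 were 12 of 12 astrocyte, 10 of 10 oligodendrocyte and 8 of 12 microglial markers, with 0 called. Their part in the member estimates was not tested.

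**Figure D4:**
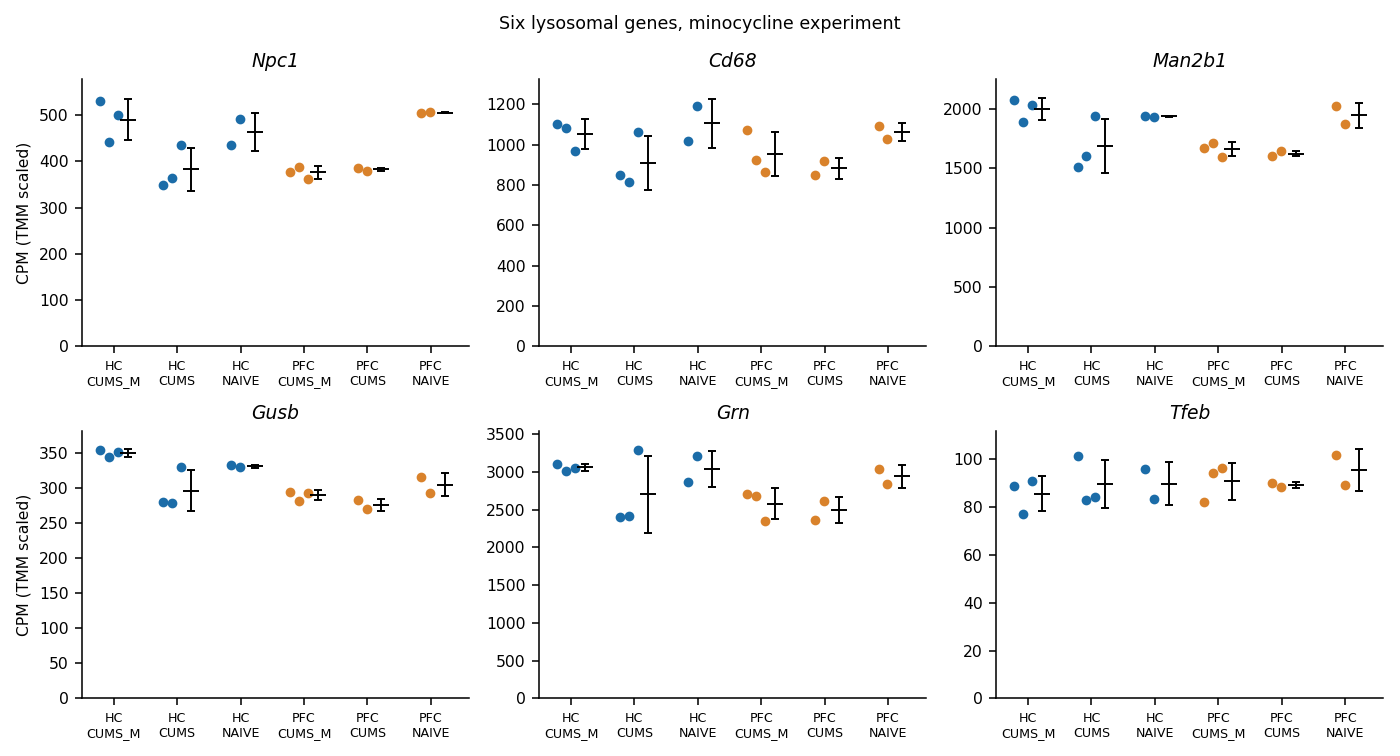
CPM of Npc1, Cd68, Man2b1, Gusb, Grn and Tfeb in each library of the minocycline experiment (points; blue HC, orange PFC) with the mean and SD of the group (bar). In HC the third CUMS library lies near the CUMS_M and NAIVE libraries for Man2b1, Gusb and Grn, and Tfeb overlaps between all groups.

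The difference between the regions in the effects was tested itself. In HC minus PFC for CUMS minus NAIVE, 0 of 37 members were called by edgeR and by DESeq2, beside 0% of tested genes, with 1 unadjusted p under 0.05, beside 6.27% of tested genes (Mcoln1, log2 fold change -0.51 ± 0.22 (SE), adjusted p = 0.720, edgeR). For CUMS_M minus CUMS, 0 of 37 were called by both tools, beside 0.00686% of tested genes (1 gene), with 1 unadjusted p under 0.05, beside 3.47% of tested genes (Npc1, log2 fold change 0.38 ± 0.14 (SE), adjusted p = 0.999, edgeR). A difference between the regions in the Npc1 estimate was therefore not shown. For EE minus VEH, 0 of 37 were called by both tools, beside 0% of tested genes, and 0 had an unadjusted p under 0.05, beside 4.21% of tested genes. The medians of these 3 differences were 0.04, 0.11 and 0.11. With single libraries left out the first ran from -0.05 (without HC CUMS 3) to 0.10, the second from 0.03 to 0.21 and the third from -0.03 (without PFC VEH 1) to 0.22, so the sign of the first and the third rests on single libraries.

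In the enrichment experiment, which asked what housing did to stressed mice, no member passed the test. In PFC, 0 of 37 members were called in EE against VEH by edgeR and by DESeq2, beside 0% of tested genes, and 0 had an unadjusted p under 0.05, beside 4.25% of tested genes. The median log2 fold change was -0.01, with 17 members above 0, and it ran from -0.10 (without PFC VEH 3) to 0.08 (without PFC VEH 1) with single libraries left out. In HC, 0 of 37 were called by both tools, beside 0% of tested genes by edgeR. DESeq2 did call genes outside the members here, as counted at the end. By edgeR 2 of 37 had an unadjusted p under 0.05, beside 10.4% of tested genes, both higher in EE. The median was 0.04, with 23 above 0, against -0.03 and 46.0% of all genes, and it ran from -0.01 (without HC EE 2) to 0.14 (without HC VEH 1).

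The members of smallest p in HC were 3 enzymes of sugar-chain breakdown. Gaa, the acid alpha-glucosidase of glycogen breakdown, had 225, 227 and 238 CPM in HC EE, against 209, 181 and 155 CPM in HC VEH (log2 fold change 0.34 ± 0.12 (SE), adjusted p = 0.305, edgeR). Sgsh had 56.4, 62.4 and 55.5 CPM in HC EE, against 49.2, 48.0 and 44.5 CPM in HC VEH (log2 fold change 0.30 ± 0.12 (SE), adjusted p = 0.402, edgeR). Glb1 had 105, 119 and 109 CPM in HC EE, against 107, 83.3 and 78.1 CPM in HC VEH (log2 fold change 0.31 ± 0.15 (SE), adjusted p = 0.509, edgeR). The EE and VEH libraries of Gaa and of Sgsh did not overlap, those of Glb1 did, and none passed. Exons of a gene on the opposite strand cover 21.6% of the Sgsh exon bases.

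In PFC the smallest p values belonged to Sgsh (log2 fold change 0.26 ± 0.12 (SE), adjusted p = 0.986, edgeR), Asah1, acid ceramidase (log2 fold change -0.25 ± 0.19 (SE), adjusted p = 0.986, edgeR), and Cd63, a tetraspanin of late endosomes and lysosomes (log2 fold change -0.25 ± 0.19 (SE), adjusted p = 0.986, edgeR). Cd63 had 162, 137 and 129 CPM in PFC EE, against 223, 168 and 119 CPM in PFC VEH. The estimates of Cd63 and Asah1 rested on PFC VEH 1, without which they were -0.01 and -0.02, and without PFC VEH 3 they were -0.45 and -0.41. Tfeb had 89.6, 83.4 and 91.7 CPM in PFC EE, against 79.7, 78.3 and 82.6 CPM in PFC VEH (0.14 ± 0.11), with every EE library above every VEH library, and 87.7, 83.8 and 85.0 CPM in HC EE, against 79.0, 89.1 and 67.1 CPM in HC VEH (0.12 ± 0.11). Npc1 had 294, 312 and 319 CPM in PFC EE, against 314, 335 and 312 CPM in PFC VEH, and 304, 368 and 316 CPM in HC EE, against 352, 300.2 and 349 CPM in HC VEH. Its estimates were -0.06 ± 0.11 in PFC and -0.02 ± 0.11 in HC.

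Libraries of 1 group in this table spread more than the groups stood apart. The median deviation of the members ran from -0.10 to 0.11 in PFC EE, against -0.23 to 0.24 in PFC VEH, and from -0.06 to 0.16 in HC EE, against -0.11 to 0.15 in HC VEH. In PFC VEH, library 1 had the highest value and 43784 CPM of microglial markers, and library 3 the lowest and 32587 CPM. Choroid plexus markers were at 513.5 to 1994 CPM in HC EE, against 0.613 to 213 CPM in HC VEH. Of 10 oligodendrocyte markers 10 had an unadjusted p under 0.05 and were higher in EE (463 to 827 CPM in HC EE, against 239 to 309 CPM in HC VEH), as had 11 of 12 astrocyte markers (723 to 1011 CPM in HC EE, against 465 to 592 CPM in HC VEH) and 6 of 10 markers of border macrophages (1985 to 2478 CPM in HC EE, against 1588 to 1854 CPM in HC VEH), though 0 passed the adjusted threshold. In PFC, 10 of 10 neutrophil markers were above 0 in EE minus VEH (358 to 2712 CPM in PFC EE, against 367 to 1060.3 CPM in PFC VEH). So were 8 of 8 monocyte markers (280.2 to 616 CPM in PFC EE, against 176 to 284 CPM in PFC VEH), and 2 of 12 microglial markers. In these PFC lists 0 were called. The part of all these cells in the member estimates of HC and PFC was not tested.

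**Figure D5:**
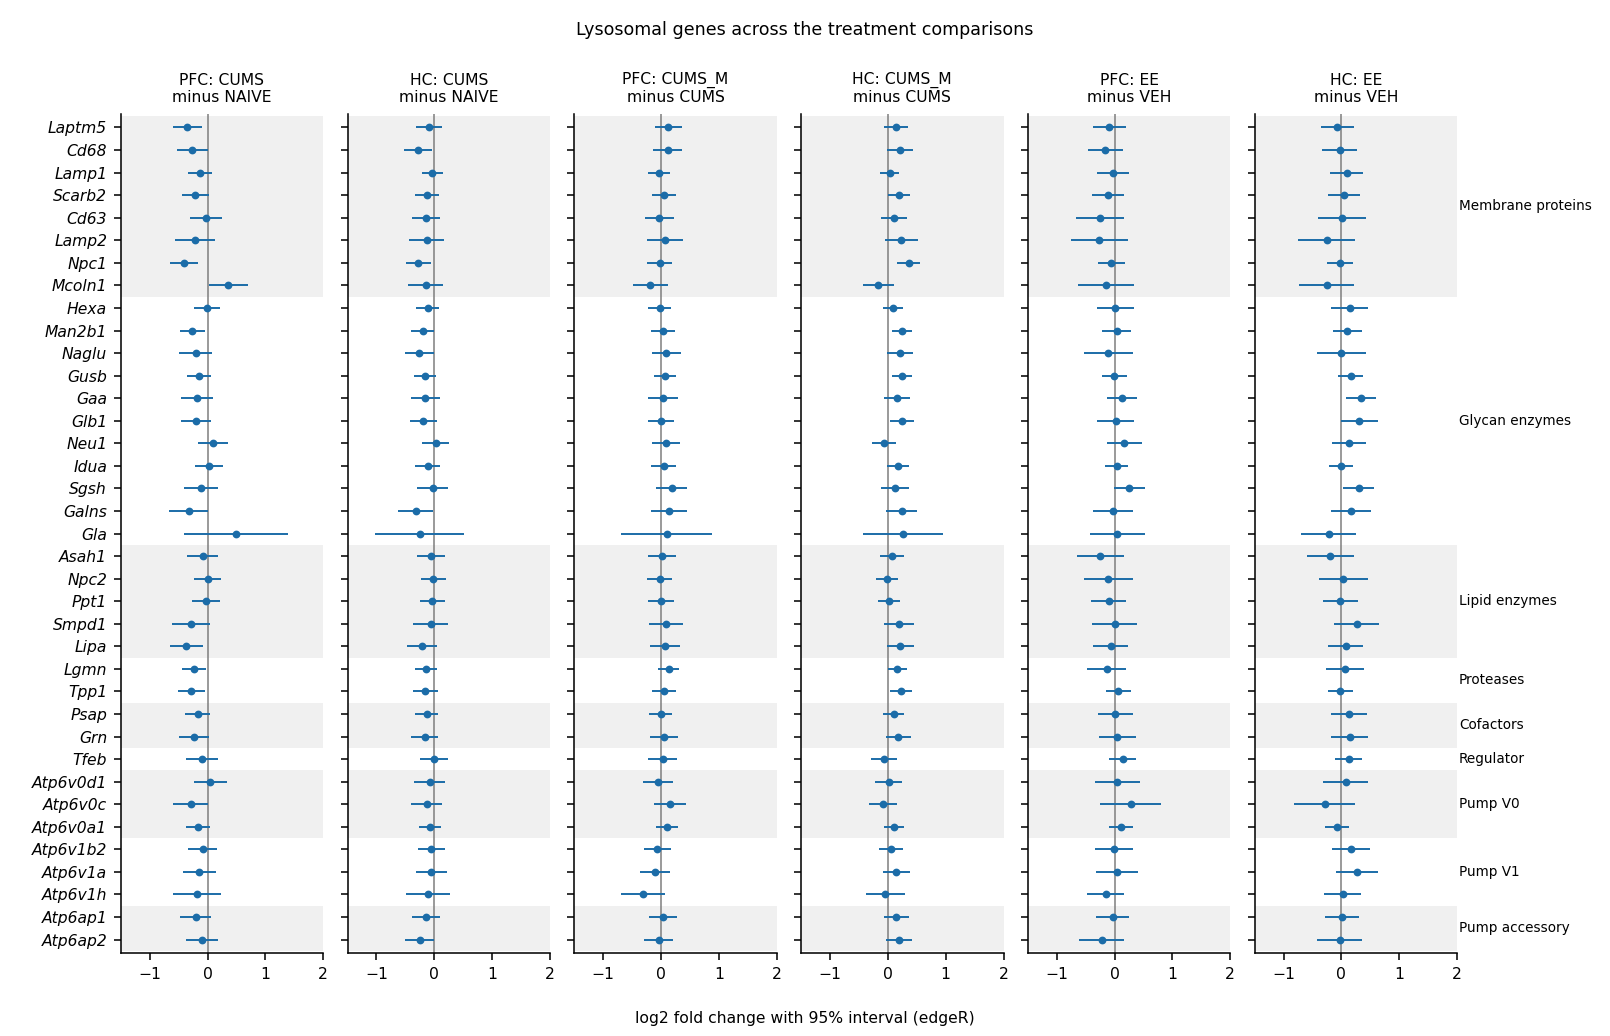
Log2 fold changes (points) with 95% intervals (lines) of the 37 genes, by role, in the 6 treatment comparisons within a region. Points right of 0 are higher in the group named first. Most points lie left of 0 for CUMS minus NAIVE in both regions and right of 0 for CUMS_M minus CUMS in HC, and none passed the test over all genes.

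The members with and without an E-box in their window are set side by side as a description, with no test. In HC, CUMS minus NAIVE had a median log2 fold change of -0.15 for the 10 members with CACGTG and of -0.13 for the 22 without it, and CUMS_M minus CUMS had 0.15 and 0.16. In PFC, CUMS minus NAIVE had -0.14 with the motif and -0.19 without it, and CUMS_M minus CUMS had 0.02 and 0.05. For EE minus VEH the medians with and without the motif were 0.08 and 0.02 in HC, and 0.03 and -0.003 in PFC. Between the regions in the minocycline table the median of HC minus PFC was 0.13 with the motif, all 10 above 0. It was 0.08 without the motif, with 17 of 22 above 0. Of all tested genes, 53.9% were above 0. In the enrichment table the median was -0.03 with the motif, with 4 of 10 above 0. Without the motif it was -0.01 there, with 10 of 22 above 0, beside 47.1% of all tested genes.

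A second list held 68 lysosomal genes outside the 37. It covered other hydrolases, membrane proteins, pump subunits and genes that control TFEB, and 67 of them passed the count filter. In HC minus PFC of the minocycline table edgeR called 2 of the 67, beside 5.1% of all tested genes by edgeR. DESeq2 called 4, of which 2 were higher and 2 lower. By edgeR 1 was higher in HC, Hgsnat, an acetyltransferase of heparan sulfate breakdown (0.27 ± 0.08 (SE), adjusted p = 0.0395, edgeR), and 1 lower, Fnip1, a partner of folliculin upstream of TFEB (-0.41 ± 0.06 (SE), adjusted p = 0.000376, edgeR). In each treatment comparison, and in HC minus PFC of the enrichment table, 0 of 67 were called by edgeR. Between 0 and 11 of the 67 had an unadjusted p under 0.05 in these, beside 2.08 to 14% of all tested genes. The 11 were in CUMS minus NAIVE in PFC, beside 13.7% of tested genes. DESeq2 called 1 in CUMS minus NAIVE in PFC, 1 in EE minus VEH in HC and 0 in the others. All genes called by DESeq2 are counted at the end for these 2 comparisons and for HC minus PFC. For the 67, the median log2 fold change in CUMS minus NAIVE was -0.06 in PFC, with 27 above 0. In HC it was -0.07, with 18 above 0. In CUMS_M minus CUMS it was 0.07 in HC, with 49 above 0, and -0.02 in PFC, with 33 above 0.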

How the data were processed

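RNA was measured in CD11b+ cells of PFC and HC in 27 libraries. The authors deposited raw read counts of each gene, in separate tables for the experiments. Per the submitters' processing notes the tools were Trimmomatic 0.36, STAR 2.6.1b, Picard 2.17.1, featureCounts 1.5.3 and DESeq2 1.24.0, on mm10 (GRCm38). The strand setting and annotation release of the counting are not given in the sources used here. The series text states strand-specific polyA libraries sequenced from both ends.

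The 37 members were matched by symbol through GENCODE M21 on GRCm38. The members and the lists were chosen with earlier results of these data known, so no count of members serves as independent support. Genes were kept by filterByExpr (minimum count 10, minimum total 15), which left 14579 genes in the minocycline table and 15921 in the enrichment table. Libraries were scaled by TMM and tested with the edgeR 4.0.16 quasi-likelihood F-test (robust, 1 mean per region and treatment group, R 4.3.3), for each table apart. Adjustment was by Benjamini-Hochberg across every tested gene of a comparison, with calls under 0.05. CPM use TMM-scaled totals, RPKM divide by the union of exons, SE and 95% intervals come from the fit, and the depth of 7.87 M to 23.9 M counts limits precision mainly for Gla. Per comparison, full statistics went to called members or to the 3 of smallest p, and Lamp1, Cd68, Npc1, Grn and Tfeb were followed throughout. Promoter windows are from RefSeq (GRCm38.p6). Alternatives were DESeq2 1.42.0 (its size factors and its Wald test), 2 other count filters, the replicate number as a block, a fit restricted to the compared groups, and the omission of each library in turn.

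Equal replicate numbers were checked as pairs by correlating deviations from group means. PFC EE and PFC VEH of the enrichment table had r = 0.359, 0.198 and 0.208 for the 3 numbers and count here as possible pairs, a hint of the data that the labels do not give. Other groups did not meet the bound of 0.1 in every pair with 3 pairs. No 2 libraries of a group agreed within sampling noise.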

Additional observations from a re-analysis of the deposited data

How the results depend on the processing

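The number of members called was the same as reported under most alternatives. In HC minus PFC of the minocycline experiment, 3 members were called with edgeR, 5 with the DESeq2 Wald test (Glb1 and Gusb added) and 1 to 4 with single libraries left out. It was 1, Atp6v0c, when PFC CUMS 1, PFC NAIVE 2 or HC NAIVE 2 was left out. CUMS_M minus NAIVE in PFC had 1 call (Npc1) with no filter on low counts and 1 with DESeq2, and CUMS_M minus CUMS in HC had 1 (Npc1) with DESeq2. The counts over all genes in these fits are not given here. In PFC CUMS minus NAIVE and CUMS_M minus NAIVE, Gla alone moved in its call with single libraries left out. This happened without PFC NAIVE 2 (log2 fold change 1.69 and 1.79). That fit leaves 1 NAIVE library, PFC NAIVE 1 with its 16 counts for Gla, so the call is given no weight. The median of the HC minus PFC difference in CUMS_M minus CUMS ran from 0.027 to 0.21, the highest without HC CUMS 3. No estimate changed sign with a call. With the replicate number as a block, HC minus PFC kept its 3 calls (Atp6v0c, Lamp1 with adjusted p = 0.0454, and Lgmn with 0.0458), and the block changed no call of a member elsewhere, EE minus VEH in PFC included. After the data were seen, thinning to equal depth gave 3 calls, and leaving out the NAIVE groups gave 2 (Lamp1 with 0.0258 and Atp6v0c), with Lgmn lost.

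Counts over all genes moved more. For CUMS minus NAIVE in PFC they were 119 with edgeR, 402 with no filter, 348 with DESeq2, 63 with the block and 26 with only the groups compared. For HC minus PFC of the minocycline table they were 744, 1191 with no filter, 1173 with DESeq2 and 428 with the block, and 292 to 983 with libraries left out. For EE minus VEH in HC they were 0 with edgeR, 441 with DESeq2 and 278 with no filter.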
